A study of Mus musculus with 9 samples.

Results

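The genes described here are those of intestinal chloride secretion and of the guanylin pathway that regulates it: Cftr, Slc26a6, Slc12a2, Kcnq1, Kcne3, Kcnn4, Guca2a, Guca2b and Gucy2c. They were chosen by name, and all 9 were found among the 78239 genes of the count table and among the 20610 genes that passed the filter on low counts. Polyadenylated RNA was sequenced from the intestinal epithelium of mice at 8 weeks of age. The mice were Lgr5-2A-eGFP animals, whose GFP is made from the locus of Lgr5, a receptor of intestinal stem cells. There were 3 groups of 3 libraries each, namely GFP-high colon cells, GFP-negative colon cells, and cells of the small intestine. All groups carried the same reporter allele, and no other treatment or genotype is named in the labels. Crypts were released by chelation, dissociated with TrypLE and sorted on GFP, with no fewer than 30000 colon or 50000 small intestinal cells collected per fraction. For the small intestinal libraries the labels give no GFP fraction, so tissue and fraction cannot be told apart in any comparison with them. The labels do not say which libraries came from separate mice. Their names carry a tag whose meaning is not explained, and some tags recur across groups: GFP-high replicate 1, GFP-negative replicate 1 and small intestinal replicate 2 share one, as do GFP-high and GFP-negative replicates 2, and GFP-high and small intestinal replicates 3. With that tag as a term in the fit, none of the 9 genes was called in any comparison. Over all genes tested, that fit called at most 18 in any comparison, and it kept 2 residual degrees of freedom. Spread between these libraries, which may be technical, is all that the p-values measure.

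Crypt cells secrete fluid by moving chloride from blood to lumen. A basolateral cotransporter loads chloride into the cell, basolateral potassium channels keep the membrane potential that drives it out, and the apical channel CFTR releases it. Guanylin and uroguanylin are peptides that epithelial cells release into the gut lumen, where they bind an apical receptor that makes cyclic GMP, and cyclic GMP in turn opens CFTR through a kinase. In the intestine this pathway is best known as the target of the heat-stable enterotoxin of diarrhoeal bacteria, which acts on the same receptor.

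Libraries held 86621513 to 106673547 counts. Lgr5 went against the labels in one pair of colon libraries. Levels are in CPM, read counts scaled to library size, on sizes scaled by TMM, the trimmed mean of M-values. In colon, Lgr5 was at 43.5, 0.958 and 73.0 CPM in the libraries labelled GFP-high (replicates 1 to 3) and at 2.84, 62.1 and 6.28 CPM in those labelled GFP-negative, so replicate 2 of each went against its label. Small intestinal libraries had 57.9, 119.7 and 209 CPM. Directions between the colon fractions below follow the labels and rest in part on this pair. All colon stands for the average of the 2 colon groups' fitted levels. With the 6 colon libraries fitted as 1 group instead, which ignores the fractions and was added after the data were seen, 2255 genes were called against small intestine, and 1812 in the fit reported here, with 3 of the 9 genes called in both. The epithelial label was checked against marker genes. Keratin 8 (Krt8) stood at 2892 to 10580.1 CPM in all libraries, the summed CPM of 8 stromal markers was at most 6.10, and of the 8 epithelial markers Cldn3 alone was at 0 in every library. Of the marker lists, in all colon against small intestine, edgeR called 0 genes higher and 9 lower of 10 enterocyte genes, 4 and 0 of 8 goblet genes, 0 and 5 of 7 Paneth genes, 1 and 1 of 9 colonocyte genes, 0 and 1 of 7 epithelial genes, 0 and 1 of 8 enteroendocrine genes and 0 and 1 of 8 stem cell genes. It called none of 8 tuft, 9 immune and 3 stromal genes tested, and it called 8.79% of all genes tested. The summed CPM of 9 immune markers was 2.38 to 250.2 in libraries labelled colon GFP-high, 3.60 to 2114 in those labelled GFP-negative and, in small intestine, 13.4 to 35.2, and it was highest in GFP-negative replicate 3. In bulk samples, fewer cells of a type and less RNA per cell cannot be told apart.

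Differences in the 9 genes were called between the tissues and none between the reporter fractions of the colon, where edgeR called no gene, not even Lgr5. Slc26a6 was far lower in colon than in small intestine, Guca2a was higher and Guca2b lower, while levels of Cftr and of the guanylin receptor gene Gucy2c overlapped among all groups. Calls are at an adjusted p under 0.05 in edgeR's quasi-likelihood test, adjusted after Benjamini and Hochberg across the 20610 genes tested. In all colon against small intestine 3 of the 9 genes were called, 1 higher and 2 lower, where 8.79% of all genes tested were called. In colon GFP-high against small intestine 1 was called, lower, against a background of 5.69%, and in colon GFP-negative against small intestine 1, lower, against 5.66%. In colon GFP-high against colon GFP-negative none was called, where 0.0% of all genes were (226 genes had an unadjusted p under 0.05, none of them among the 9). The 3 comparisons with the small intestine share its 3 libraries and are not independent of each other. DESeq2 called 3 of the 9 genes in all colon against small intestine (17.6% of all genes), 3 in GFP-high (13.2%) and 3 in GFP-negative cells against small intestine (13.9%), and none between fractions (0.00485%, 1 gene). Limma-voom called 2 in all colon (8.23%), 1 in GFP-high (5.14%) and 1 in GFP-negative cells against small intestine (5.09%), and none between fractions (0.0%). Its call in GFP-negative cells was Guca2a, higher (adjusted p = 0.0293), where Slc26a6 was not called (adjusted p = 0.0514). Groups did not overlap in CPM for 2 of the 9 genes, Slc26a6 and Guca2a, in each comparison with the small intestine, which was 22.2% of them. Of all genes tested, 17.9% did not overlap in all colon against small intestine, 27.3% in GFP-high and 27.5% in GFP-negative cells against small intestine. Between colon fractions none of the 9 genes was free of overlap, against 4.41% of all genes. The median log2 fold change of the 9 genes was -0.33 in all colon against small intestine and 0.20 between the fractions, and that of all genes was -0.000298 and -0.02.

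**Figure D1:**
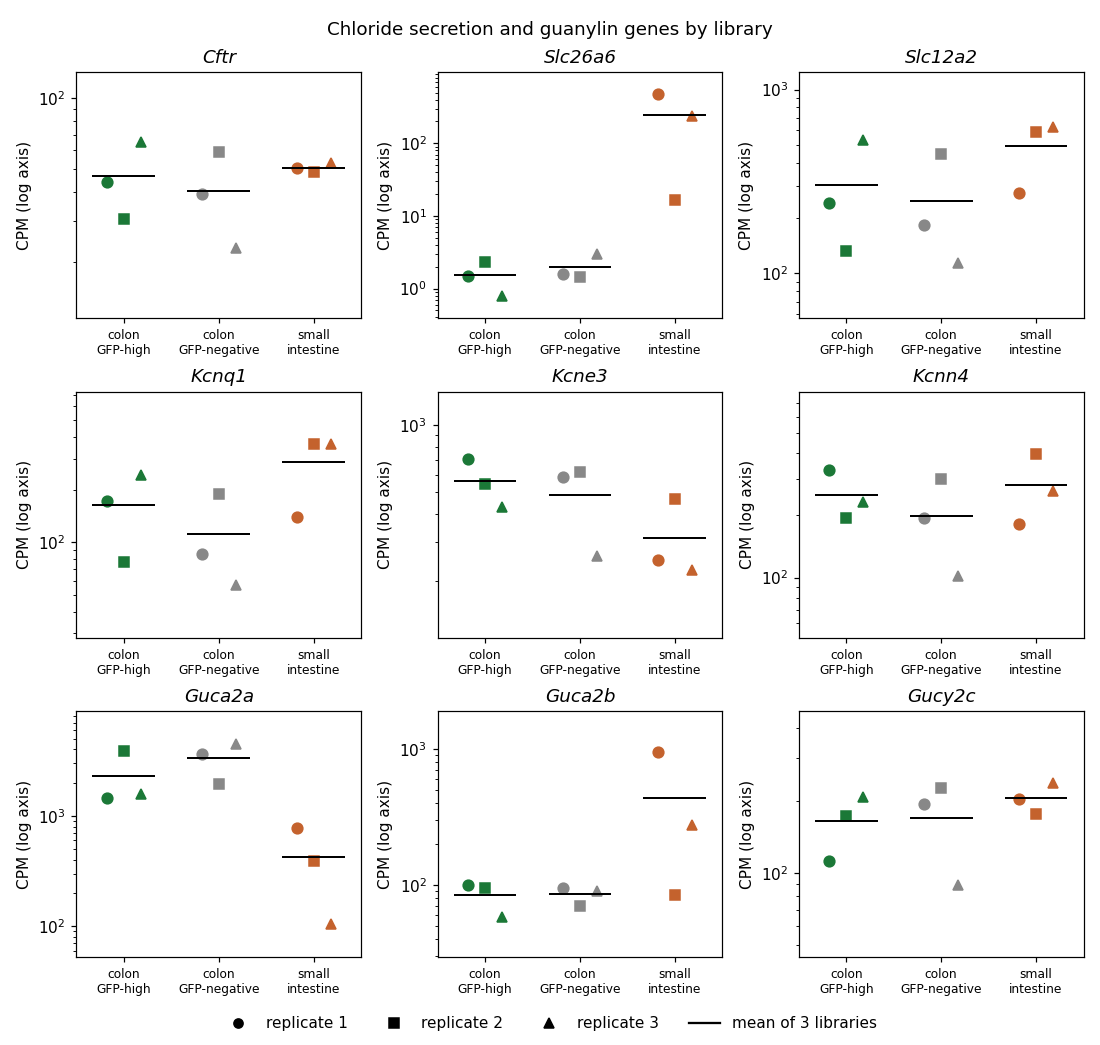
Level of each of the 9 genes in CPM (vertical log axis) by group (GFP-high colon, GFP-negative colon, small intestine); points are single libraries, shapes give the replicate number of the labels and lines the mean of 3 libraries. Slc26a6 stayed at or below 3.00 CPM in all 6 colon libraries and Guca2a at or above 1443 CPM, with every small intestinal library on the other side.

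Cftr encodes the apical chloride and bicarbonate channel (ENSMUSG00000041301.16, chromosome 6, 18170687 to 18322768, plus strand, GENCODE M21 on GRCm38). It had 43.9, 30.5 and 64.8 CPM in libraries labelled colon GFP-high replicates 1 to 3, 39.1, 58.8 and 23.1 CPM in those labelled GFP-negative, and in small intestine 50.3, 48.5 and 53.2 CPM. The small intestinal libraries lay within the range of the colon libraries, which spread far more widely. All colon libraries averaged 43.4 ± 16.1 CPM (SD, n = 6) and small intestine 50.6 ± 2.37 CPM (SD, n = 3). The log2 fold change was -0.23 ± 0.32 (SE) with a 95% interval of -0.95 to 0.49 (edgeR adjusted p = 0.697). Between the fractions it was 0.21 ± 0.37 (adjusted p = 1), with an interval of -0.63 to 1.04.

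Slc26a6 encodes an apical exchanger of chloride for bicarbonate and oxalate (ENSMUSG00000023259.18, chromosome 9, 108853283 to 108913049, plus strand). It had 1.47, 2.31 and 0.782 CPM in libraries labelled colon GFP-high, 1.57, 1.43 and 3.00 CPM in those labelled GFP-negative, and in small intestine 481, 16.7 and 236 CPM. Every small intestinal library stood above every colon library, and replicate 2 was the lowest of the small intestinal ones. The mean was 1.76 ± 0.779 CPM in all colon (SD, n = 6) and 244 ± 232 CPM in small intestine (SD, n = 3), a ratio of small intestine to colon of 139. Slc26a6 fell by 7.13 ± 0.86 on the log2 scale (SE) in all colon against small intestine (edgeR adjusted p = 0.00187, lower in 6 of 6 colon libraries). It fell by 7.33 ± 1.19 in GFP-high (adjusted p = 0.00946) and by 6.93 ± 1.17 in GFP-negative cells (adjusted p = 0.0107) against the same small intestinal libraries. The call in all colon held with any 1 library left out (adjusted p 0.000329 to 0.0109), with fold changes of -7.68 to -6.18, the smallest without small intestinal replicate 1. In that fit the change was -6.38 in GFP-high and -5.98 in GFP-negative cells. It held also with the colon as 1 group (adjusted p = 0.000715), and without both colon replicate 2 libraries (adjusted p = 0.0128). Without that pair the adjusted p was 0.0502 in GFP-high cells, no longer called, and 0.0497 in GFP-negative cells. Without colon GFP-negative replicate 1, the adjusted p in GFP-negative cells against small intestine was 0.0615, and it was 0.0514 in limma-voom. With the name tag as a term, the change in all colon was -5.61 and was not called (adjusted p = 0.291). Between the colon fractions the log2 fold change was -0.40 ± 0.91 (adjusted p = 1).

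The level of Slc26a6 within the small intestine moved with that of enterocyte markers. The summed CPM of the 10 markers, all of them in the table, was 152 to 285 in libraries labelled colon GFP-high, 256 to 352 in those labelled GFP-negative, and 35118, 719 and 8201 in small intestinal replicates 1 to 3. The most abundant, Apoa1, an apolipoprotein of absorptive cells, had 14767, 117 and 3727 CPM in small intestinal replicates 1 to 3 and 1.41 to 84.6 CPM in colon libraries. Only Lct, in colon GFP-high replicate 1, was at 0 among these markers. The part of enterocyte content in the Slc26a6 difference was not tested. Small intestinal replicate 2 was the lowest small intestinal library both for the marker sum and for Slc26a6, and was above every colon library in both.

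Slc12a2 encodes the basolateral sodium, potassium and chloride cotransporter NKCC1, which loads chloride into secretory cells (ENSMUSG00000024597.12, chromosome 18, 57878678 to 57946821, plus strand). It had 240.2, 132 and 535 CPM in libraries labelled colon GFP-high, 183, 448 and 114 CPM in those labelled GFP-negative, and in small intestine 274, 589 and 624 CPM. The spread within each group was as wide as the distance between groups. The mean was 275 ± 175 CPM in all colon (SD, n = 6) and 496 ± 193 CPM in small intestine (SD, n = 3). Its log2 fold change was -0.86 ± 0.53 (SE) with a 95% interval of -2.06 to 0.34 (edgeR adjusted p = 0.354). Between the fractions the change was 0.29 ± 0.63 with an interval of -1.14 to 1.71 (adjusted p = 1), and it changed sign without colon GFP-high replicate 3 (-0.41) or GFP-negative replicate 3 (-0.05).

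The basolateral potassium channels are formed by Kcnq1, the pore, with Kcne3, its small accessory subunit that holds it open, and separately by Kcnn4, a pore opened by calcium. Kcnq1 (ENSMUSG00000009545.15, chromosome 7, 143106362 to 143427042, plus strand) was measured at 172, 77.2 and 243 CPM in libraries labelled colon GFP-high, 86.0, 189 and 56.6 CPM in those labelled GFP-negative, and in small intestine 139, 364 and 362 CPM. Small intestinal replicates 2 and 3 were above every colon library and replicate 1 was not. Its log2 fold change in all colon against small intestine was -1.10 ± 0.48 (SE; edgeR adjusted p = 0.196, unadjusted p = 0.0476). Of the exon bases of Kcnq1, 121 (2.96%) overlap the antisense RNA Kcnq1ot1 on the other strand. Whether counting used the strand is not given in the sources used here. Kcnq1ot1 had 1.33 to 2.63 CPM, and the part of the overlap in the counts of Kcnq1 was not tested.

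Kcne3 (ENSMUSG00000035165.15, chromosome 7, 100176502 to 100184869, plus strand) was measured at 706, 544 and 431 CPM in libraries labelled colon GFP-high, 588, 618 and 259.5 CPM in those labelled GFP-negative, and in small intestine 249.6, 469 and 224 CPM. Small intestinal replicate 2 was above GFP-high replicate 3 and GFP-negative replicate 3, and GFP-negative replicate 3 was near the other small intestinal libraries. The log2 fold change in all colon against small intestine was 0.73 ± 0.37 (SE; edgeR adjusted p = 0.259), with an interval of -0.11 to 1.58. Per gene length, Kcne3 exceeded Kcnq1 by a ratio of RPKM (reads scaled by gene length and library size) of 9.46, 16.2 and 4.09 in libraries labelled colon GFP-high, 15.7, 7.52 and 10.6 in those labelled GFP-negative and 4.13, 2.97 and 1.42 in small intestine. Only GFP-high replicate 3 kept these ratios from separating colon and small intestine, by a small margin. The pair was chosen after the values were seen, so the ratio is a description with no test.

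Kcnn4 (ENSMUSG00000054342.9, chromosome 7, 24370263 to 24386690, plus strand) was measured at 331, 195 and 231 CPM in libraries labelled colon GFP-high, 195, 300.4 and 102 CPM in those labelled GFP-negative, and in small intestine 181, 397 and 264 CPM. Groups overlapped throughout. Its log2 fold change was -0.33 ± 0.37 (SE) in all colon against small intestine (edgeR adjusted p = 0.631, interval -1.16 to 0.51) and 0.35 ± 0.43 between the fractions (adjusted p = 1).

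**Figure D2:**
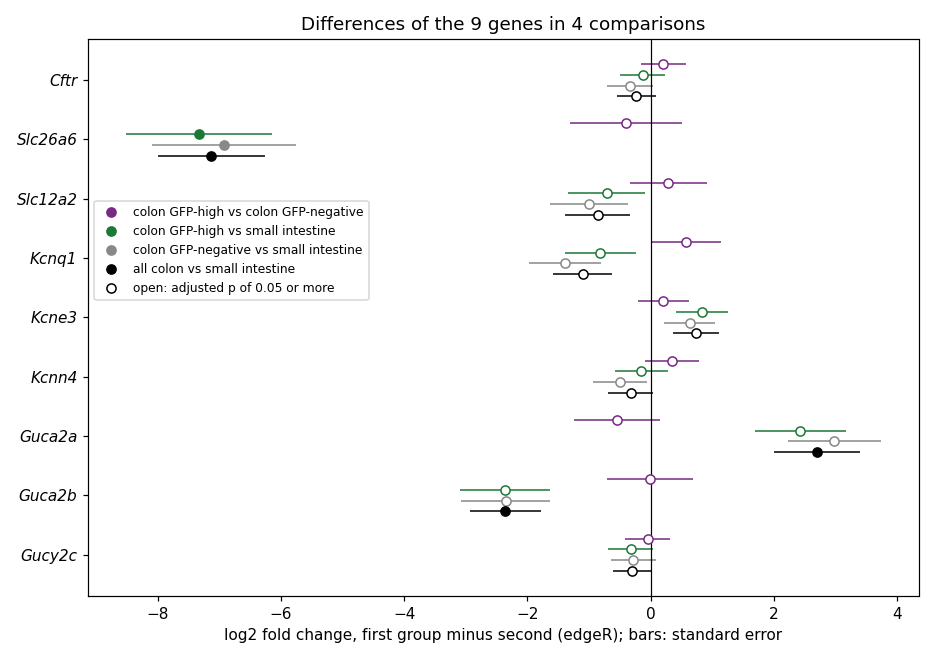
Log2 fold changes of the 9 genes (horizontal axis, first group minus second, edgeR) in 4 comparisons, with bars of 1 standard error; filled points have an adjusted p under 0.05. Slc26a6 was called in the 3 comparisons with small intestine (-7.33, -6.93 and -7.13), Guca2a and Guca2b in all colon against small intestine alone (2.71 and -2.36), and the other 6 genes in none.

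Guca2a encodes guanylin and Guca2b uroguanylin. The genes are neighbours in GRCm38, Guca2a on the plus strand (ENSMUSG00000023247.3, chromosome 4, 119637704 to 119639471) and Guca2b on the minus strand (ENSMUSG00000032978.15, chromosome 4, 119656607 to 119658954), with 17135 bases between them. Their promoters are shown because these neighbours had fold changes of opposite sign in all colon against small intestine. Both calls were lost without most single libraries, as given below. The 250 bases before each start site are RefSeq sequence (GRCm38.p6, written 5′ to 3′ along the gene), chr4:119637482-119637731 on the plus strand for Guca2a and chr4:119658946-119659195 on the minus strand for Guca2b. Capitals mark the motif matches.
Guca2a: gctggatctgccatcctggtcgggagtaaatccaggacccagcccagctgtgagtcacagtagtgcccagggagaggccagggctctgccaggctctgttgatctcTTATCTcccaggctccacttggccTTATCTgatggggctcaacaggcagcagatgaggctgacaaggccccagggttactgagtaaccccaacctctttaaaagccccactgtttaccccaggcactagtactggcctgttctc
Guca2b: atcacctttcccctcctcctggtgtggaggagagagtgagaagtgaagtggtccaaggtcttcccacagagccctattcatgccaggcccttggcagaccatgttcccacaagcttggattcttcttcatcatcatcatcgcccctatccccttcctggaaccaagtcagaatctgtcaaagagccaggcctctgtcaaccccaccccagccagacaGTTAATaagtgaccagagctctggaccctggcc
A set of 4 motifs was searched on both strands in windows of 300 bases (250 before to 50 after the start). AGATAA, a letter pattern of GATA factors, is held by 11.2% of the 32851 RefSeq promoter windows. It matched the Guca2a window on its minus strand (TTATCT in the printed run), starting 144 and 120 bases before the start. GTTAAT, part of an HNF1 pattern, is held by 7.10% of windows and matched the Guca2b window starting 33 bases before the start. The TATA pattern TATAAA (13.6% of windows) and the CDX pattern TTTATG (11.9%) matched neither. A window was found for 6 of the 9 genes, and those of Cftr, Slc26a6, Kcne3 and Kcnn4 held none of the 4 patterns. No overlap between motif matches occurred, and a match is a description of letters only.

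Guca2a had 1443, 3907 and 1565 CPM in libraries labelled colon GFP-high, 3652, 1965 and 4450.1 CPM in those labelled GFP-negative, and in small intestine 781, 392 and 104 CPM. Every colon library was above every small intestinal one. Mean levels were 2830.3 ± 1322 CPM in all colon (SD, n = 6) and 426 ± 340 CPM in small intestine (SD, n = 3), a ratio of 6.65. Guca2a was higher in all colon by 2.71 ± 0.70 on the log2 scale (SE; edgeR adjusted p = 0.0460, 6 of 6 colon libraries). Against small intestine the log2 fold change was 2.43 ± 0.74 in GFP-high (adjusted p = 0.0999) and 2.98 ± 0.76 in GFP-negative cells (adjusted p = 0.0560). The call is close to the threshold: of the 9 fits that leave out 1 library, only that without small intestinal replicate 1 kept it (adjusted p = 0.0473), the others gave 0.0552 to 0.157, and the fold change lay between 2.24 (without small intestinal replicate 3) and 3.49 (without small intestinal replicate 1). It was called with the colon as 1 group (adjusted p = 0.0315) and not with the name tag as a term (adjusted p = 0.254). Without both colon replicate 2 libraries the adjusted p was 0.0782.

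Of 8 goblet cell markers, 4 were called higher in all colon against small intestine and none lower (8.79% of all genes called). The summed CPM of the 8 markers, none of them at 0 in any library, was 14197, 44082 and 7476 in libraries labelled colon GFP-high, 46813, 17378 and 23393 in those labelled GFP-negative, and 19390.0, 1908 and 2847 in small intestine. The groups overlapped in this sum, where small intestinal replicate 1 was above 3 of the 6 colon libraries. Zg16 made up 11970 CPM of the sum in that library, and its Tff3, Zg16, Clca1 and Fcgbp lay within the colon range. Its levels of the 4 called markers, Muc2, Agr2, Spink4 and Spdef, were below those of every colon library, as was its Guca2a. The most abundant of the called markers, Agr2, a protein disulfide isomerase needed for mucin production, had 3623 to 12911 CPM in colon and 178 to 1040.1 CPM in small intestinal libraries. Tff3, Zg16, Clca1 and Fcgbp were not called. Within the colon, the summed CPM of 9 colonocyte markers was lowest in GFP-high replicate 1 (1100) and highest in GFP-negative replicate 3 (37069), as was Guca2a. It was 1889 to 11672 in small intestine, which overlapped the colon. The part of goblet cell or colonocyte content in the Guca2a difference was not tested. Within the small intestine Guca2a was lowest in replicate 3 (104 CPM), as were Agr2, Spink4, Spdef and Tff3. The goblet marker sum, Muc2, Clca1, Fcgbp and Zg16 were lowest in replicate 2.

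Guca2b had 99.9, 95.1 and 58.3 CPM in libraries labelled colon GFP-high, 95.0, 70.0 and 89.7 CPM in those labelled GFP-negative, and in small intestine 944, 83.6 and 275 CPM. Small intestinal replicate 2 lay inside the colon range, and the other two lay above it. The mean was 84.7 ± 16.6 CPM in all colon (SD, n = 6) and 434 ± 452 CPM in small intestine (SD, n = 3). Guca2b fell by 2.36 ± 0.58 on the log2 scale (SE) in all colon against small intestine (edgeR adjusted p = 0.0377), with 4 of 6 colon libraries as high as or higher than the lowest small intestinal one. It was -2.36 ± 0.73 in GFP-high (adjusted p = 0.105) and -2.36 ± 0.73 in GFP-negative cells (adjusted p = 0.108), not called in either. Leaving out small intestinal replicate 2 kept the call (adjusted p = 0.00801) and gave one in GFP-high (0.0248) and in GFP-negative cells (0.0247). Leaving out any other library lost it (adjusted p 0.0647 to 0.177), and without small intestinal replicate 1 the log2 fold change was -1.08. Without both colon replicate 2 libraries the adjusted p was 0.120, and limma-voom gave 0.118. With the name tag as a term it was -0.88 (adjusted p = 0.682), and with the colon as 1 group it was called (adjusted p = 0.0226). The high, low and intermediate small intestinal libraries of Guca2b were those of the enterocyte marker sum given above, and the part of enterocyte content in this difference was not tested.

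Per gene length, the ratio of Guca2a to Guca2b in RPKM was 21.2, 60.2 and 39.3 in libraries labelled colon GFP-high, 56.3, 41.1 and 72.7 in those labelled GFP-negative, and 1.21, 6.86 and 0.554 in small intestine. All 6 colon libraries were above all 3 small intestinal ones, and in small intestinal replicate 3 uroguanylin transcripts exceeded guanylin transcripts. This ratio too was chosen after the values were seen and carries no test.

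Gucy2c encodes guanylate cyclase C, the receptor of both peptides (ENSMUSG00000042638.15, chromosome 6, 136697284 to 136781765, minus strand). It had 112, 173 and 208 CPM in libraries labelled colon GFP-high, 195, 225 and 88.9 CPM in those labelled GFP-negative, and in small intestine 203, 176 and 236 CPM. All groups overlapped. Its log2 fold change in all colon against small intestine was -0.30 ± 0.31 (SE; edgeR adjusted p = 0.591), with an interval of -1.01 to 0.40, and -0.05 ± 0.36 between the fractions (adjusted p = 1).

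**Figure D3:**
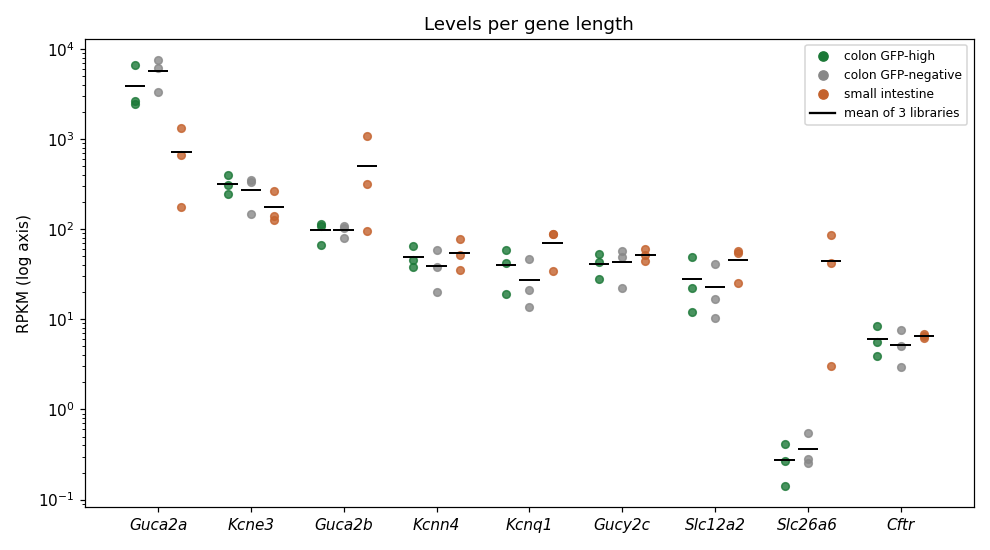
RPKM of the 9 genes (vertical log axis) in the 3 groups; points are single libraries and lines the mean of 3. Guca2a led in every group, at means of 3880.3 in colon GFP-high, 5649 in colon GFP-negative and 717 in small intestine, and Slc26a6 was last in both colon groups (0.275 and 0.361) but at 44.2 in small intestine.

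Levels per length ordered the genes alike in the colon groups. In libraries labelled colon GFP-high, mean RPKM was 3880.3 for Guca2a, 315 for Kcne3, 97.0 for Guca2b, 49.3 for Kcnn4, 41.4 for Gucy2c, 40.0 for Kcnq1, 27.7 for Slc12a2, 5.98 for Cftr and 0.275 for Slc26a6 (n = 3). Kcnn4, Gucy2c, Kcnq1 and Slc12a2 overlapped their neighbours in that order and the other genes did not. In libraries labelled GFP-negative, the order differed only in that Gucy2c (42.8) stood before Kcnn4 (38.9), and the same 4 genes overlapped their neighbours. In small intestine Guca2a (717) was followed by Guca2b (499), Kcne3 (177), Kcnq1 (70.5), Kcnn4 (54.9), Gucy2c (51.8), Slc12a2 (45.4), Slc26a6 (44.2) and Cftr (6.52). Of these, only Kcne3 and Kcnq1 were neighbours that did not overlap. Per length the channel gene Cftr was thus below the loading cotransporter and every potassium channel gene in each group's mean. The ratio of Cftr to Slc26a6 in RPKM ran from 5.48 to 59.0 in colon libraries and was 0.0745, 2.06 and 0.161 in small intestine.

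In the colon, Slc12a2 and Kcnq1 ranked the 6 libraries in the same order, and Guca2a was highest where they were lowest. Colon GFP-high replicate 3 had the highest Slc12a2, Kcnq1 and Cftr (535, 243 and 64.8 CPM), and colon GFP-negative replicate 3 the lowest (114, 56.6 and 23.1 CPM). Guca2a was highest in GFP-negative replicate 3 (4450.1 CPM) and lowest in GFP-high replicate 1 (1443 CPM). Libraries labelled GFP-high replicates 1 and 3 and GFP-negative replicate 2 were the 3 colon libraries with the most Slc12a2, Kcnq1, Cftr and Kcnn4. They also had the least Guca2a and the most Lgr5, which is given as an observation on single libraries with no test. GFP-negative replicate 3, which had the most immune marker RNA, was the lowest colon library for Cftr, Slc12a2, Kcnq1, Kcne3, Kcnn4 and Gucy2c. The part of that RNA in those levels was not tested.

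**Figure D4:**
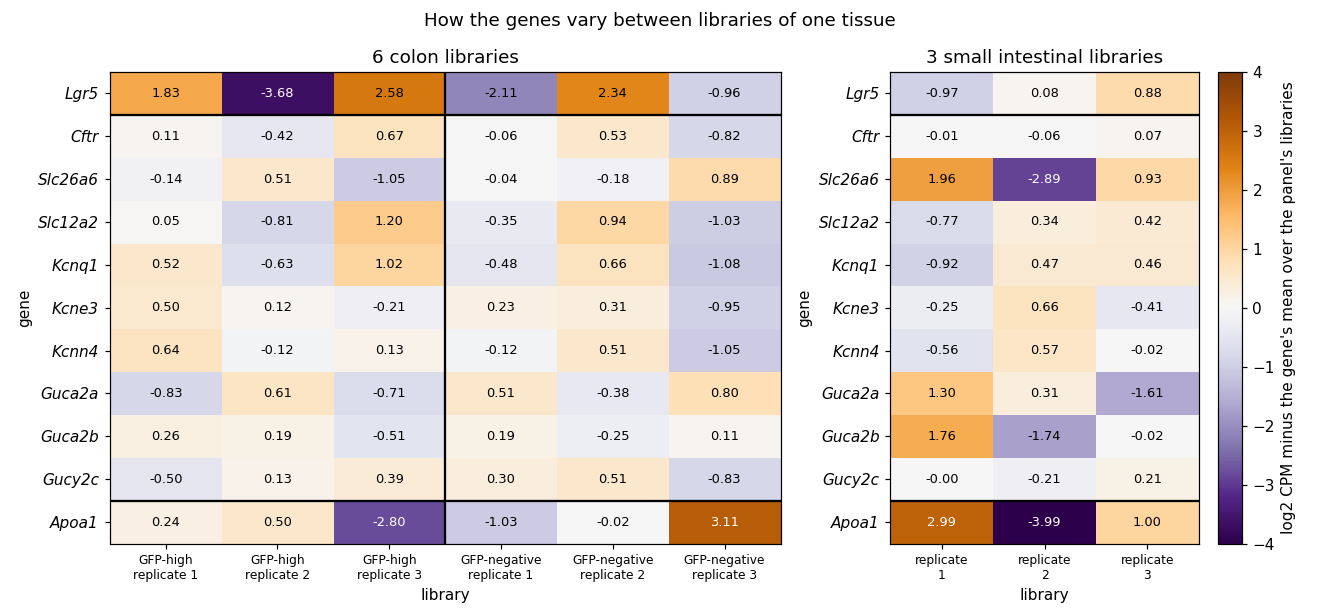
Log2 CPM of Lgr5, the 9 genes and the enterocyte marker Apoa1, less each gene's mean over the 6 colon libraries (left) or the 3 small intestinal libraries (right); orange is above and purple below the mean. In the left panel Kcnq1 is at 1.02 in GFP-high replicate 3 and at -1.08 in GFP-negative replicate 3, and in the right panel Slc26a6 and Apoa1 are both lowest in replicate 2 (-2.89 and -3.99).

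Genes with the most similar pattern were ranked by the root mean square difference of log2 CPM over the 9 libraries, each gene centred on its mean, among 10266 genes whose mean was 5 CPM or more. The points share libraries and depth, and the ranking is a description. Slc12a2 was nearest to Mcm3 (0.20), Timeless (0.20) and Dtl (0.20), with Kcnq1 in place 6 (0.23). Kcnq1 was nearest to Myc (0.17), Ctc1 (0.20) and Slc12a2 (0.23). Cftr was nearest to Zfp507 (0.11), Mtmr3 (0.14) and Bltp3b (0.15), and Gucy2c to Glce, Gnl3l and Plekha1 (0.14 each). For Kcnn4 the nearest were Rcc1l (0.14), Bsn (0.16) and Klhl21 (0.17), and for Kcne3 Ube2e2 (0.20) and Fndc3b (0.22). The closest to Guca2a were S100a16 (0.47), Smim5 (0.49) and Slc66a3 (0.50). Guca2b was nearest to Acbd4 (0.32), Slc46a1 (0.36) and Cndp2 (0.37). Slc26a6 was nearest to Treh (0.56), Tmem86b (0.63) and Anpep (0.67), which is on the enterocyte marker list.

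Other genes of the pathway were taken from 4 lists. In all colon against small intestine, 5 of 18 tested genes that move ions beside the 9 were higher and none lower. Over all genes tested, 8.79% were called. Best2, a bestrophin anion channel, had 15.7 to 161 CPM in colon and 0.0155 to 0.0274 CPM in small intestinal libraries, where each held 2 counts (edgeR adjusted p = 0.00135). Ano1, the calcium-activated chloride channel, averaged 27.9 ± 12.4 CPM in all colon (SD, n = 6) and 2.27 ± 0.794 CPM in small intestine (SD, n = 3), a log2 fold change of 3.55 ± 0.38 (SE; adjusted p = 0.00119). Kcnma1, the pore of the large-conductance potassium channel, was higher by 4.16 ± 0.46 (adjusted p = 0.00128), and Lrrc26, an auxiliary subunit of that channel, had 161 ± 84.3 CPM in all colon and 29.2 ± 11.7 CPM in small intestine (adjusted p = 0.0277). Fxyd3, a regulator of the sodium pump, was higher by 2.71 ± 0.44 (adjusted p = 0.00704). Leaving out any 1 library kept the calls of Best2, Ano1, Kcnma1 and Fxyd3, and that of Lrrc26 was lost without colon GFP-high or GFP-negative replicate 1 or any small intestinal library (adjusted p up to 0.119). In GFP-high cells 4 of the 18 were higher than in small intestine and none lower (5.69% of all genes called). In GFP-negative cells 5 were higher and none lower (5.66%). The median log2 fold change of the 18 was -0.05 in all colon, beside -0.000298 over all genes.

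Of 17 tested genes of cyclic nucleotide signalling, 1 was higher and 2 were lower in all colon (8.79% of all genes called). Prkg2, the membrane-bound cyclic GMP-dependent kinase that phosphorylates CFTR, had 6.47, 14.4 and 24.5 CPM in libraries labelled colon GFP-high, 12.5, 8.29 and 18.4 CPM in those labelled GFP-negative, and in small intestine 49.8, 31.1 and 45.9 CPM. The groups did not overlap, and Prkg2 fell by 1.59 ± 0.40 on the log2 scale (SE; edgeR adjusted p = 0.0411). Prkar2a, a regulatory subunit of the cyclic AMP-dependent kinase, fell by 0.70 ± 0.17 (adjusted p = 0.0323), and its relative Prkar2b was higher by 2.48 ± 0.56 (adjusted p = 0.0281). Gnas, the stimulatory G protein and the most abundant of the list, had 1190.5 ± 83.8 CPM in all colon and 877 ± 86.7 CPM in small intestine, not called (adjusted p = 0.227). These calls were not firm to single libraries: that of Prkar2a was lost without any 1 of the 9 (adjusted p 0.0508 to 0.134), that of Prkg2 without any but colon replicates 3 (up to 0.153) and that of Prkar2b without colon GFP-negative replicate 1 or 2 or small intestinal replicate 1 or 3 (up to 0.140), and its change was 3.12 without small intestinal replicate 2. In GFP-high cells 1 of the 17 was higher than in small intestine and none lower (5.69% of all genes called). In GFP-negative cells none was called (5.66%). The list's median in all colon was -0.15.

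Among 13 tested receptors that act on secretion, 3 were higher and 1 lower in all colon (8.79% of all genes called). Npy1r, the Y1 receptor of neuropeptide Y and peptide YY, hormones that restrain secretion, averaged 13.9 ± 5.50 CPM in all colon and 0.103 ± 0.0967 CPM in small intestine (edgeR adjusted p = 0.00676). Small intestinal replicates 1 to 3 had 0.192, 0.117 and 0 CPM of it, so its fold change rests on values near 0. Chrm1, a muscarinic receptor, was higher by 2.67 ± 0.57 on the log2 scale (adjusted p = 0.0215), and Ptger3, a prostaglandin E receptor, by 4.76 ± 0.78 (adjusted p = 0.00687). Adra2a, the alpha-2A adrenergic receptor, which restrains secretion, fell by 1.92 ± 0.38 (adjusted p = 0.0165). Vipr1, a receptor for vasoactive intestinal peptide and the most abundant of the list, was not called (-0.46 ± 0.25, adjusted p = 0.295). Npy1r and Ptger3 stayed called without any 1 library, with the change of Npy1r at 7.89 without small intestinal replicate 1 and 6.47 without replicate 3, Chrm1 was lost without colon GFP-negative replicate 1 or any small intestinal library (adjusted p up to 0.106) and Adra2a without small intestinal replicate 2 or 3 (up to 0.0970). In GFP-high cells 3 of the 13 were higher and none lower than in small intestine (5.69% of all genes called). In GFP-negative cells 2 were higher and 1 lower (5.66%). The list's median in all colon was 0.23.

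Of 14 scaffold and kinase genes, 2 were higher and 3 lower in all colon (8.79% of all genes called). Nherf2, a scaffold that ties CFTR to other apical proteins, rose to 50.4 ± 21.5 CPM in all colon, against 5.35 ± 2.69 CPM in small intestine (log2 fold change 3.23 ± 0.52 SE, edgeR adjusted p = 0.00630). Its relatives went the other way. Pdzk1 had 0.00931 to 0.815 CPM in colon libraries and 114, 0.859 and 54.0 CPM in small intestinal replicates 1 to 3 (adjusted p = 0.00716), again low in replicate 2, and Nherf1 had 127 ± 29.4 CPM in all colon and 401 ± 253 CPM in small intestine (adjusted p = 0.0342). Sgk1, a kinase that raises sodium absorption, was higher by 1.96 ± 0.42 (adjusted p = 0.0218), and Ahcyl1 (IRBIT), a regulator of CFTR and bicarbonate transporters, fell by 1.18 ± 0.26 (adjusted p = 0.0256). Ezr, the membrane linker ezrin and the most abundant of the list, was not called (-0.36 ± 0.43, adjusted p = 0.655). Nherf2 and Pdzk1 stayed called in all colon without any 1 library. The change of Pdzk1 was -9.01, and was -9.67 without colon GFP-high replicate 2, -10.25 without GFP-negative replicate 3 and -7.97 without small intestinal replicate 1. It rests on colon values near 0. In GFP-high cells against small intestine, Pdzk1 was called in only 4 of the 9 fits that leave out 1 library, and in GFP-negative cells it was not called. The call of Sgk1 was lost without any small intestinal library (adjusted p up to 0.0827), that of Nherf1 without any but colon GFP-negative replicate 3 or small intestinal replicate 2 (up to 0.139), and that of Ahcyl1 without any but colon GFP-high replicate 3 or GFP-negative replicate 2 or 3 (up to 0.118). In GFP-high cells 2 of the 14 were higher and 1 was lower than in small intestine (5.69% of all genes called). In GFP-negative cells 1 was higher and none lower (5.66%). The list's median in all colon was -0.34. None of the genes of the 4 lists was called between the colon fractions, where 0.0% of all genes were.

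**Figure D5:**
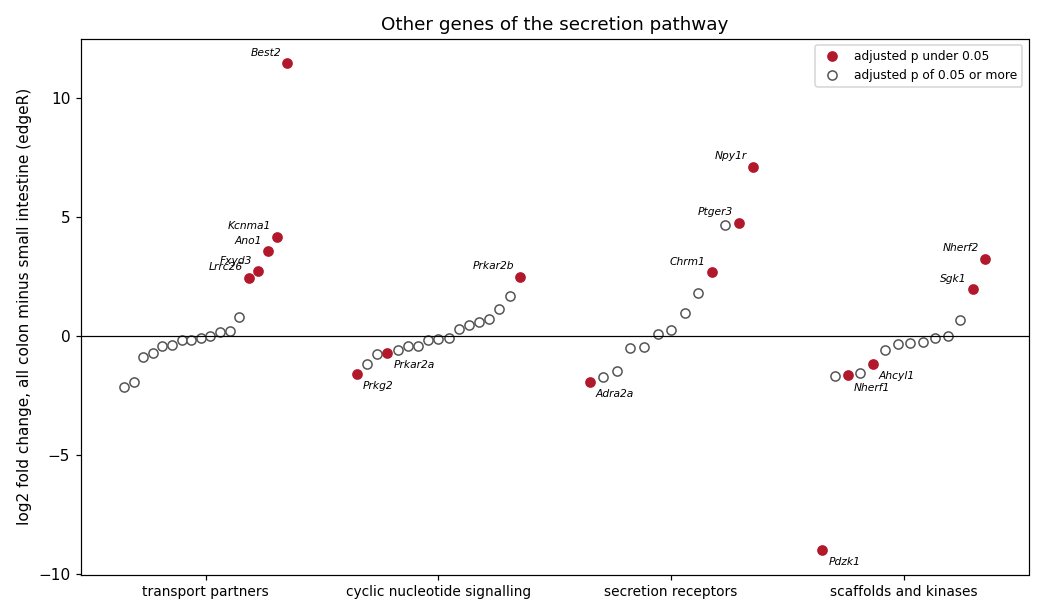
Log2 fold change of each tested gene of the 4 lists in all colon against small intestine (vertical axis, colon minus small intestine, edgeR), ordered within a list by its value; filled points have an adjusted p under 0.05. Called genes numbered 5 of 18 in the transport list and 3 of 17 in cyclic nucleotide signalling. They numbered 4 of 13 among receptors and 5 of 14 among scaffolds and kinases, with 8.79% of all genes called.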

How the data were processed

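RNA was counted in 9 libraries, 3 per group. The submitters' processing notes name build mm10 and the tools STAR, featureCounts (Subread) and edgeR, with neither versions nor a strand setting. Per the file headers, the authors deposited raw read counts per gene, log2 CPM, log2 RPKM and log2 TPM, and a TMM factor, a ratio per library over all genes (recomputed within 4.44e-15). Only counts entered the tests. CPM and RPKM printed here were computed from the counts, the table's gene lengths and the deposited factors. Gene positions and exon overlaps are from GENCODE M21, matched on the gene ID without its version. Slc26a6 has 5411 exon bases there and a length of 5533 bases in the count table, so the annotation used for counting may differ.

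Genes were filtered with filterByExpr by group in R 4.3.3 with edgeR 4.0.16, which left 57629 of 78239 genes untested. One quasi-likelihood fit of all 9 libraries without a replicate term gave the 4 contrasts, with two-sided tests and Benjamini-Hochberg adjustment. All colon is the mean of both colon groups' coefficients. Intervals are 95% intervals from the standard error and the fit's degrees of freedom. DESeq2 1.42.0, limma-voom (limma 3.58.1), other scalings, no filter, fits of the compared groups only, replicate terms and left-out libraries were tried. With a biological coefficient of variation of 0.726 (common dispersion), the spread between libraries and not depth limited precision.

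The genes, 4 pathway lists and 10 marker lists were chosen with earlier results of these data known, and so give no independent support. Named pathway genes are, per list and comparison, up to 4 called genes with the largest change and at least 5 CPM in the higher group, plus the most abundant; some genes that the rules name are not reported here. Lrrc26, Ptger3 in all colon and Ahcyl1 fell outside that rule and were named after their values were seen, as were single-library patterns. Of the 10 colonocyte markers, 9 were matched in the table. The labels do not say whether libraries of the same replicate number are paired. Deviations from the group mean correlated at -0.604 to 0.303 between same-numbered libraries, and at -0.604 to 0.275 between libraries of one name tag. With 3 libraries per group these correlations cannot decide on pairing. The -0.604 belongs to the colon replicate 2 pair, whose Lgr5 went against its labels.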

Additional observations from a re-analysis of the deposited data

How the results depend on the processing

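Values were recomputed under 18 alternatives for each comparison. Slc26a6 kept its direction in all of them in every comparison with the small intestine, and was called in 17 of 18 in all colon, in 15 in GFP-high and in 14 in GFP-negative cells. Guca2a and Guca2b in all colon kept their direction in all 18 and were called in 7 and in 6. DESeq2 called 1 gene between fractions, 2713 in GFP-high, 2859 in GFP-negative and 3618 in all colon against small intestine. Of the 9 genes, DESeq2 called 3 in GFP-high and 3 in GFP-negative cells against small intestine, scaling by total counts 2 in each, and the fit with no filter 2 in GFP-negative cells. Scaling by total counts moved the median of all genes between fractions by 0.14 (log2). Leaving out 1 library gave 564 to 1375 calls (1 to 2 of the 9 genes) in GFP-high, 531 to 1078 (0 to 2) in GFP-negative and 991 to 1787 (1 to 2) in all colon. Without both colon replicate 2 libraries there were 508 calls (0 of the 9) in GFP-high and 1089 (1) in all colon.

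Whether the replicate numbers pair the libraries is not given, so the block is no main result. Name tags link some libraries across groups, with no meaning given. With the replicate number as a block, 508 genes (0 of the 9) were called in GFP-high, 532 (0) in GFP-negative and 895 (1) in all colon. The equal 508 came from different fits, with 393 genes shared. With a block for the tag in the library names, 18 genes (0 of the 9) were called in GFP-high, 0 (0) in GFP-negative and 18 (0) in all colon. That fit keeps 2 residual degrees of freedom, and 2 of its 5 tags hold 1 library each (colon GFP-negative replicate 3 and small intestinal replicate 1), which it effectively drops. The cause of the lost calls was not tested.

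Some uncalled fold changes changed sign, the cause not tested. Between fractions these were, with the tag block, Cftr (-0.30), Slc12a2 (-0.50), Kcnq1 (-0.0342) and Guca2a (0.11), with total counts Guca2b (0.13) and Gucy2c (0.10), with the replicate block Guca2b (0.000408), in limma-voom Gucy2c (0.0128) and without the colon replicate 2 pair Gucy2c (0.17). In GFP-high against small intestine Cftr (0.10) and Kcnn4 (0.00402) turned without that pair. With the tag block Cftr (0.21) and Gucy2c (0.15) turned in GFP-negative cells and Cftr (0.0641) in all colon. With 1 library left out, ranges crossing 0 between fractions were -0.12 to 0.57 for Cftr, -0.16 to 0.19 for Guca2b, -0.35 to 0.21 for Gucy2c, -0.10 to 0.40 for Kcne3, -0.41 to 1.02 for Slc12a2 and -0.83 to 0.0271 for Slc26a6. Against small intestine they were -0.42 to 0.10 for Cftr and -0.39 to 0.20 for Kcnn4 in GFP-high, -0.53 to 0.0254 for Gucy2c in GFP-negative and -0.56 to 0.0316 for Kcnn4 in all colon. In all colon, the fit of only the compared groups is the main one and was not run apart.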
